A study of Mus musculus with 186 samples.

Results

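The promoter of Tusc3 was inserted, unmutated and with 4 degrees of CpG loss, into 1 genomic site of mouse embryonic stem cells (ESCs), and its transcriptional activity was read from barcodes. Tusc3 constructs make up 5 of the 60 constructs (12 promoters with 5 constructs each) of a library of CpG mutants of CpG island promoters, and the unmutated promoter is also 1 of 273 constructs listed for a second library of housekeeping promoters. The promoter was chosen by its number of barcodes. Its unmutated construct had 4, 2 and 2 barcodes in the 3 wild-type replicates and 1 barcode in each TKO replicate, and a deposited activity needs at least 3. Activity relative to the unmutated promoter therefore exists for 1 wild-type replicate only, and the mutants are described here by their own log2 activity.

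TrAC-seq counts barcodes, each joined to 1 promoter construct, in RNA and in DNA of the same pool of cells, and activity is the ratio of RNA to DNA averaged over the barcodes of a construct. Wild-type cells were TC-1 mouse ESCs with a cassette exchange site in the beta-globin locus. TKO cells are a single line derived from them by CRISPR-Cas9 deletion of Dnmt1, Dnmt3a and Dnmt3b, the genes of the maintenance and de novo DNA methyltransferases. Each line was measured in 3 replicates after insertion. The sources do not say whether replicates are separate cultures, so that p-values reflect only how far these samples scatter, which may be technical variation. The mutant library gave 2169 to 2341 barcodes per replicate in wild-type cells and 710 to 756 in TKO cells. Expression of other genes was not measured in these libraries, and the cell type was not checked by markers.

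Tusc3 encodes a subunit of the oligosaccharyltransferase complex, which attaches N-linked sugar chains to proteins in the endoplasmic reticulum, and is expressed in many tissues. CpG islands are stretches rich in C, G and CG dinucleotides that cover the start sites of most broadly expressed mammalian genes and are usually free of DNA methylation. Mammalian DNA has lost most other CpGs because methylated cytosine is prone to mutate. The normalized CpG density (OE) is the observed number of CpGs over the number expected from the C and G content. A list of 11 genes of the same complex was looked up among the inserted promoters with coordinates, and 0 of these genes start in one of them.

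The inserted fragment is chr8:40068715-40069150 on mm9, plus strand, 436 bp long. It holds 184 bases upstream of the annotated start of Tusc3 (ENSMUSG00000039530.9, chr8:40068899-40250466), 218 bases of the 5′ leader of its first exon and the first 34 coding bases. Other annotated transcripts start at 40068921 and 40068962, within the fragment. The 184 upstream bases are shown from the reference genome, to show how CpGs lie in the unmutated promoter, with each CpG in capitals. Which of these CpGs were mutated is not marked.

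Tusc3 upstream bases, chr8:40068715-40068898 (mm9, plus strand): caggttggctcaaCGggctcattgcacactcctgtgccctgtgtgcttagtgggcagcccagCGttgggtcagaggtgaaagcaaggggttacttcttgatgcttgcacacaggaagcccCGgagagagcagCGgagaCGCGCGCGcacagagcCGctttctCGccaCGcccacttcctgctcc

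The upstream stretch holds 11 of the 34 CpGs of the fragment, and 9 of these 11 lie in the 92 bases next to the start. The leader holds 20 CpGs and the coding bases hold 3. Windows of the same length and position at 22236 protein-coding genes have a median of 21.5 CpGs, and 66.3% of them have fewer than the Tusc3 fragment. Among the 12 promoters of the library the Tusc3 fragment is the shortest, the others being 508 to 568 bp long, and its G+C content of 66.7% is the highest. Its OE of 0.70 is above that of Armc7 (0.61) and Fam165b (0.69) and below that of the other 9 promoters.

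None of 6 short motifs searched on both strands occurred in the Tusc3 fragment. The Sp1-type motif GGGCGG was present in 10 of the 12 fragments and in 51.4% of the windows of all protein-coding genes. The Ets-type motif CCGGAAG was present in 6 of 12 and in 13.7% of windows, the E-box CACGTG in 2 of 12 and 9.18%, and CCAAT in 5 of 12 and 43.8%. The NRF1-type motif GCATGCGC (3.70% of windows) and TATAAA (13.9%) were in 0 of 12. None of these motifs contains another, and their absence says only that these letters are not in the fragment.

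In the mutants the C of a CpG was changed to A at CpGs drawn at random outside motifs of transcription factors with a ChIP peak at the promoter, with a new draw for each degree of loss. The construct called 25% mutated kept 28 of 34 CpGs (OE 0.60), the 50% construct 21 (OE 0.47), the 75% construct 14 (OE 0.33) and the 100% construct 7 (OE 0.18). The percentages refer to CpGs outside motifs of factors with a ChIP peak, 27 of the 34. By this design, the 7 CpGs left at 100% are those within such motifs. From the unmutated to the 100% construct the G+C content decreased from 66.7% to 60.5%. The positions of the mutated CpGs were not analysed here.

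The barcodes that chose the promoter were fewest for its unmutated construct. In wild-type cells the counts of the 3 replicates added up to 8 barcodes for this construct, the lowest of the 12 promoters, whose median was 71. Such totals are sums over replicates, so a barcode seen in several replicates is counted more than once. Fam165b followed with 34, and all other promoters had at least 3 barcodes in every wild-type replicate. In TKO cells the Tusc3 total was 3, against a median of 32, and the unmutated promoter of Mul1, a mitochondrial ubiquitin ligase, also had too few (1 in total). The unmutated Fam165b promoter passed in TKO cells with 2 or 3 barcodes per replicate. The mutated Tusc3 constructs were covered better, with totals in wild-type cells of 103, 80, 263 and 215 barcodes at 25%, 50%, 75% and 100% and totals in TKO cells of 31, 41, 47 and 59. At 100% the Tusc3 total was the highest of the 12 promoters in both lines.

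In wild-type and in TKO cells, mean log2 activity of the 75% mutated Tusc3 construct was above that of the 25% and 50% constructs. The 100% mutated construct was near the lowest measurable value in both lines. Log2 activity cannot go below -4.32, because 0.05 was added to every ratio before averaging, and a construct less than 0.5 above this floor is termed inactive. In wild-type cells, log2 activity of the 25% construct was -2.78, -3.07 and -2.87 in replicates 1, 2 and 3 (23, 47 and 33 barcodes), with a mean of -2.91 ± 0.15 (SD, n = 3). The 50% construct reached -2.76, -2.93 and -3.01 (29, 24 and 27 barcodes), with a mean of -2.90 ± 0.12. Values of these constructs overlapped.

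The 75% construct reached -2.16, -2.48 and -2.17 in wild-type cells (64, 112 and 87 barcodes), with a mean of -2.27 ± 0.18 (SD, n = 3), and each of its values was above every value of the 25% and 50% constructs. The 100% construct was at -3.88, -3.92 and -3.97 (51, 79 and 85 barcodes), with a mean of -3.93 ± 0.04. This mean is 0.40 above the lowest measurable value, which places the construct among the inactive ones. All 3 of its values were below those of every other Tusc3 construct.

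In TKO cells the order was the same. The 25% construct was at -2.68, -2.41 and -2.94 (12, 9 and 10 barcodes), with a mean of -2.67 ± 0.27 (SD, n = 3). The 50% construct was at -2.57, -2.75 and -2.47 (14, 14 and 13 barcodes), with a mean of -2.60 ± 0.14. The 75% construct was at -2.13, -2.33 and -2.12 (18, 13 and 16 barcodes), with a mean of -2.19 ± 0.12, again above every value of the 25% and 50% constructs. The 100% construct was at -3.78, -3.74 and -3.72 (20, 19 and 20 barcodes), with a mean of -3.74 ± 0.03, which is 0.58 above the lowest measurable value and thus just outside the inactive range.

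The unmutated construct had 1 value, -1.77 in wild-type replicate 1 from 4 barcodes, which was the highest of the 5 constructs in that replicate. Relative to it, activity in the same replicate was 0.499 at 25%, 0.503 at 50%, 0.762 at 75% and 0.231 at 100%. The value of the unmutated construct has no replicate, and none of these ratios was tested.

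The first comparison asks how activity depends on the number of CpGs left. Every pair of degrees of CpG loss was compared within each promoter, by per-replicate differences fitted with limma over the whole library and Benjamini-Hochberg adjusted p-values with a threshold of 0.05. In wild-type cells 5 of 6 Tusc3 pairs were called, of which the more mutated construct was higher in 2 and lower in 3. Over all promoters the more mutated construct was called higher in 4.63% and lower in 74.1% of 108 pairs, Tusc3 pairs included. Pairs of other promoters include those with the unmutated construct, which Tusc3 lacks. This holds for every share of pairs given below. In TKO cells 4 of 6 Tusc3 pairs were called, 1 higher and 3 lower, against 5.68% higher and 71.6% lower of 88 pairs. Of the 5 pairs called higher in each line, 2 were of Tusc3 in wild-type cells and 1 in TKO cells.

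Activity in wild-type cells rose from the 25% to the 75% construct by 0.63 on the log2 scale (SE 0.11, adjusted p = 0.00418), or 1.55-fold. The difference was 0.61, 0.58 and 0.70 in the 3 replicates. From the 50% to the 75% construct it rose by 0.63 (SE 0.13, adjusted p = 0.00838), with 0.60, 0.45 and 0.83 in the replicates, and this call was lost without replicate 3 (0.52, adjusted p = 0.0543). In TKO cells activity rose from the 50% to the 75% construct by 0.41 (SE 0.12, adjusted p = 0.0208), or 1.33-fold, with 0.44, 0.43 and 0.35 in the replicates. That call was lost without replicate 2 (0.40, adjusted p = 0.0608) and without replicate 3 (0.44, adjusted p = 0.0802).

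From the 25% to the 75% construct, TKO cells showed a log2 difference of 0.48 (SE 0.18, 95% confidence interval 0.03 to 0.93) that did not pass, with an adjusted p of 0.0513 and single values of 0.55, 0.08 and 0.81. The low difference came from replicate 2, whose 25% construct was the one with 9 barcodes. The pair passed without replicate 2 (0.68, adjusted p = 0.0201), with a minimum of 10 barcodes, which leaves out the same value (0.68, adjusted p = 0.000145), and with weights by the number of barcodes (0.50, adjusted p = 0.0233). It did not pass without replicate 1 (0.45, adjusted p = 0.123), without replicate 3 (0.32, adjusted p = 0.221) or with a further pseudocount of 0.05 (0.38, adjusted p = 0.0553). The 25% and 50% constructs were not told apart, with a log2 difference of 0.01 (95% confidence interval -0.30 to 0.31, adjusted p = 0.965) in wild-type and 0.08 (-0.40 to 0.55, adjusted p = 0.728) in TKO cells.

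Loss of the last CpGs that could be removed went with the steepest decrease. From the 75% to the 100% construct, which has 7 CpGs fewer, activity fell by 1.65 on the log2 scale in wild-type cells (SE 0.13, adjusted p = 0.000269), a 3.14-fold decrease, and by 1.55 in TKO cells (SE 0.12, adjusted p = 0.000133), a 2.93-fold decrease. The 100% construct was also lower than the 25% construct, by log2 differences of -1.02 in wild-type (adjusted p = 0.00105) and -1.07 in TKO cells (adjusted p = 0.00142). Against the 50% construct the differences were -1.03 (adjusted p = 0.000779) and -1.14 (adjusted p = 0.000464). In every replicate of both lines the 100% construct was below each of the other mutants. Because the added 0.05 makes up most of the value of the 100% construct, 0.066 on the linear scale in wild-type and 0.075 in TKO cells, these folds understate the change in the ratio of RNA to DNA.

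Log2 activity was also regressed on OE over the mutated constructs of each promoter in each replicate. The Tusc3 slope was 1.84 log2 units per unit of OE in wild-type cells (SE 0.18, adjusted p = 0.00115) and 2.10 in TKO cells (SE 0.23, adjusted p = 0.000612), so that activity was higher at higher OE over the whole series. Slopes in this direction were called for 83.3% of 12 promoters in wild-type and 90% of 10 in TKO cells. The Tusc3 slope ranked 10 of 12 and 8 of 10 from the steepest, and the other promoters had median slopes of 4.35 and 4.79. Among the mutated constructs, the direction of the Tusc3 slope rests on the 100% construct. The unmutated construct (OE 0.70), whose single value of -1.77 was the highest in wild-type replicate 1, was not in these fits. Over the constructs of 25% to 75%, an alternative added after seeing the data, the slope was -2.39 in wild-type (SE 0.25, adjusted p = 0.00252) and -1.82 in TKO cells (SE 0.60, adjusted p = 0.0477), in the direction of higher activity at lower OE. Slopes in that direction were called for 2 of 11 promoters in wild-type and 2 of 8 in TKO cells, Tusc3 included, and slopes in the opposite direction for 7 of 11 and 5 of 8.

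The second comparison asks whether the response of the promoter differs in cells without DNA methyltransferases, by setting TKO against wild-type cells. TKO cells are a single line with its own insertion of the library and fewer barcodes. An effect of genotype, or its absence, cannot be told apart from these. No Tusc3 construct passed in limma (0 of 4, with 1 of 4 at an unadjusted p under 0.05), while 27.5% of the 51 constructs compared were called over the library. This share is unstable, as the 14 calls became 1 with weights by barcodes or a further pseudocount and 0 to 7 with 1 replicate left out. TKO minus wild-type log2 differences were 0.23 at 25% (95% confidence interval -0.15 to 0.62, adjusted p = 0.339), 0.30 at 50% (0.02 to 0.58, adjusted p = 0.123), 0.08 at 75% (-0.22 to 0.39, adjusted p = 0.647) and 0.18 at 100% (-0.01 to 0.38, adjusted p = 0.171). Each mean was higher in TKO cells. Replicates of the lines overlapped at 25% and 75% and did not overlap at 50% and 100%. At 50% the highest wild-type value (-2.763) and the lowest TKO value (-2.754) nearly met. How many other constructs of the library did not overlap was not counted, so nothing is read from this.

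The direction of these differences depends on the scaling between lines. The replicate medians of the 47 constructs with a value in all 6 replicates were on average 0.26 higher in TKO than in wild-type cells (log2). This is not the typical shift of a construct. The median TKO minus wild-type difference was 0.08 over the 51 constructs compared. After centring each replicate on its median, the Tusc3 differences became -0.03 at 25%, 0.04 at 50%, -0.18 at 75% and -0.08 at 100%, with adjusted p from 0.236 to 0.879. Centring also moved the calls over the library from 7 higher and 7 lower in TKO cells to 2 higher and 15 lower. No direction is therefore given for single Tusc3 constructs between the lines.

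Centring cancels in differences between steps within a line and in slopes. A scale factor acting before 0.05 was added would not cancel fully, least of all for the 100% construct near the floor. How far this moves the step from 75% to 100% or the slope was not tested. None of the 6 Tusc3 step differences changed between the lines by limma (0 at an unadjusted p under 0.05), while 11.4% of 88 were called over the library (10 calls, and 2 to 11 with 1 replicate left out). The rise from the 50% to the 75% construct was smaller in TKO cells by 0.22 (95% confidence interval -0.61 to 0.18, adjusted p = 0.476), and the decrease from 75% to 100% was smaller by 0.10 (-0.31 to 0.50, adjusted p = 0.724). The slope on OE differed by 0.26 (-0.51 to 1.02, adjusted p = 0.486), while 40% of 10 promoters had a called difference of slopes (4 calls, and 0 to 4 with 1 replicate left out). The first of these intervals reaches nearly as far as the rise from 50% to 75% in wild-type cells.

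Among promoters of the library, Tusc3 stood low in the order at 25% and 50% and near the top at 75%. A neighbour is said to lie within the spread where the means differ by less than the larger of both SDs. In wild-type cells its 25% construct ranked 10 of 12 by mean log2 activity, between Snupn, an import factor of spliceosomal ribonucleoproteins (-2.54 ± 0.10), and Mul1 (-3.59 ± 0.18). The 50% construct ranked 8 of 11, between the transcription factor gene Usf1 (-2.62 ± 0.17) and Snupn (-3.53 ± 0.35), and differed from all 4 of these neighbours by more than their spread. At 75% it ranked 2 of 12, far below Cops8, a subunit of the COP9 signalosome (-0.31 ± 0.08), and within the spread of Snrpb2, a protein of the U2 spliceosomal particle (-2.29 ± 0.12). At 100% it ranked 5 of 11 and lay within the spread of its neighbours Snrpb2 (-3.84 ± 0.18) and Napg (-3.93 ± 0.19), and 9 of the 11 promoters were inactive.

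The order in TKO cells was much alike. The 25% construct ranked 8 of 10, below Cops8 (-1.80 ± 0.09) and above Rrm1, the large subunit of ribonucleotide reductase (-3.87 ± 0.03). The 50% construct ranked 8 of 11, within the spread of Usf1 (-2.43 ± 0.33) and just beyond that of Snupn (-2.82 ± 0.21). The 75% construct ranked 3 of 10, within the spread of Nvl, an ATPase of ribosome assembly (-2.06 ± 0.63), and above Napg, a factor of vesicle fusion (-2.67 ± 0.04). The 100% construct ranked 2 of 10, within the spread of Mul1 (-3.56 ± 0.19) and of Nvl (-3.91 ± 0.19), and 8 of 10 promoters were inactive.

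The rise from the 50% to the 75% construct was the highest of 11 promoters in wild-type cells, where the median was -0.78 and 3 differences were positive, and of 9 promoters in TKO cells, where the median was -1.13 and Tusc3 had the sole positive difference. From 25% to 75%, Tusc3 ranked second in both lines, after Cops8 (1.39 in wild-type and 1.14 in TKO cells), with medians of -1.54 and -1.07. The difference between Tusc3 and other promoters was not tested. Among the promoters with all 4 mutated constructs, the 75% construct was the most active in 2 of 10 in wild-type cells, the other being Rrm1 with all values in the inactive range, and in 1 of 8 in TKO cells.

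The profiles most like that of Tusc3, by root mean square difference of centred log2 activity over 8 values (4 degrees of loss in both lines) among 7 promoters with all values, were those of Rrm1 (0.58), Fam165b (0.64) and Mul1 (0.77). Rrm1 was close to the lowest measurable value throughout, from -3.92 to -4.17 in wild-type and from -3.87 to -4.32 in TKO cells. Fam165b decreased from -2.41 at 25% to -3.80 at 100% in wild-type cells without a rise at 75% (-3.10). Each of these distances is larger than the SDs of the Tusc3 means, which were 0.03 to 0.27.

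The unmutated Tusc3 promoter was better covered in the second housekeeping library, measured in wild-type cells only. Log2 activity there was -0.66, -1.12 and -0.31 from 10, 5 and 5 barcodes, with a mean of -0.69 ± 0.41 (SD, n = 3). It ranked 23 of the 60 constructs that passed, whose median was -2.93, between Snupn (-0.16 ± 0.12) and Rrm1 (-0.83 ± 0.31), of which Rrm1 lay within its spread. Among the 12 promoters shared by both libraries it ranked 10. The single value of the mutant library was 1.08 lower. The other 11 promoters had a median difference of -0.98 between the libraries (-2.15 to 0.50), so the Tusc3 value is placed inside their range. The libraries were processed separately, and this difference was not tested.

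DNA methylation of the inserted Tusc3 promoter was given for 1 value of the 75% construct and 1 of the 100% construct, from bisulfite sequencing of clones of wild-type cells. Methylation averaged over the promoter was 9.89% for the 75% construct and 38.9% for the 100% construct, with no replicate and unknown coverage. At 75% the mean of 1 promoter was lower (Cops8, 8.35% over 7 values) and those of 5 were higher, the next being Nvl at 34.3%. At 100% Snrpb2 was lower (33.8%), and Napg (68.3% over 2 values) and 1 further promoter were higher. Over all other promoters, single values at 75% ranged from 0.0307% to 89.04% (14 values). Whether methylation has a part in the levels of Tusc3 in wild-type cells was not tested with these clones.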

How the data were processed

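The authors scaled the barcode reads of the RNA and DNA libraries and kept barcodes seen in over 20 DNA reads. The activity deposited by the authors is a ratio of RNA to DNA with 0.05 added, given per replicate as the geometric mean of a construct's barcodes. OE was deposited by the authors as a ratio, and G+C content as a percent. For methylation, the authors deposited a fraction per clone, printed in percent here. Numbers of barcodes and CpGs are those the authors give. Bowtie and mm9 are named in the submitters' processing notes, with versions not given in the sources used here. For libraries of mutant promoters, the paper states that reads were instead assigned by string distance to the reference sequences in R.

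Activities were converted to log2. Constructs needed at least 3 barcodes in at least 2 replicates, and a construct with under 3 barcodes in a replicate has no activity there. Tests used limma 3.58.1 in R 4.3.3 over all constructs, pairs or promoters of the mutant library, two-sided, at a threshold of 0.05 after Benjamini-Hochberg adjustment, and were tested on simulated data. Tables were handled with Python 3.11.15, numpy 2.4.6 and pandas 2.3.3. Replicates were not paired: deviations of same-numbered replicates of both lines correlated at 0.07, 0.06 and 0.41 over 47 constructs. Coordinates are 1-based on NCBIM37 (mm9) with the GENCODE M1 annotation, and the fragment read there gave the 34 CpGs of the deposited table. Read totals are unknown, so coverage is described by numbers of barcodes only.

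The promoter and lists were chosen with earlier results of these data known. All Tusc3 constructs are named, the 3 promoters with the most similar profile, and the promoters next to Tusc3 in an order. Armc7 is named beside these for its OE, after its value was seen. Other libraries, relative activities of other promoters, ChIP-seq data and RT-qPCR values were not used here.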

Additional observations from a re-analysis of the deposited data

How the results depend on the processing

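All called Tusc3 step differences kept their direction under every alternative run, and no Tusc3 comparison between the lines was called under any. Leaving out 1 replicate kept 4 to 5 of the 6 pairs called in wild-type cells and 3 to 4 in TKO cells, and slopes of 1.73 to 1.95 and 1.85 to 2.36, with 0.00654 to 0.524 for their difference. Over the constructs of 25% to 75% the slopes turned to -2.39 and -1.82, as the 100% construct was left out.

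Counts over the library moved more. Between the lines, 14 constructs were called, 2 with a minimum of 10 barcodes (27 constructs tested), 1 with weights by barcodes, 1 with a further pseudocount of 0.05, and 0 to 7 with 1 replicate left out. Of step differences between the lines 10 were called, then 1 (of 34), 2 with weights, and 2 to 11. Of slope differences 4 were called, then 2 with a minimum of 10 barcodes (of 5), 2 with the further pseudocount, 1 over 25% to 75%, and 0 to 4. In TKO cells the minimum of 10 barcodes left 28 called pairs in place of 68 and 5 called slopes in place of 10, with fewer constructs tested. The cause of the other changes was not tested.

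With the replicate number as a block, 0 constructs, 1 step difference and 1 slope difference were called between the lines over the library, and 0 of Tusc3, whose slope difference was 0.26 (adjusted p = 0.483). Whether the numbers pair the samples is unclear. The highest correlation was that of the replicates numbered 3 (0.41), and wild-type replicate 1 correlated best with TKO replicate 1 (0.07). Wild-type replicate 2 also correlated best with TKO replicate 1 (0.13, against 0.06 with TKO replicate 2). A barcode minimum of 1, or of 3 for the levels, adds no value to those analysed, and was not run. Levels moved by less than 1 SD with barcode weights. Leaving out 1 of 3 values cannot move a mean by 1 SD, so levels without a replicate are no check by this measure. With 1 to 4 barcodes per replicate, the unmutated Tusc3 construct cannot be compared with its mutants.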
